A study of Homo sapiens with 9 samples.

Results

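The proteasome is the protease complex that degrades proteins marked with ubiquitin. Its core particle, the 20S, is a barrel of stacked rings in which the alpha subunits (PSMA genes) gate the entry and the beta subunits (PSMB genes) hold the active sites. The regulatory particle, the 19S (PSMC and PSMD genes), binds ubiquitinated proteins, removes the ubiquitin and feeds the unfolded chain into the core, while other caps (PSME genes), an inhibitor (PSMF1) and chaperones of ring assembly (PSMG genes) act on the same core. In most cells the subunit genes are transcribed together, because the subunits are needed in fixed proportions, and the transcription factor NFE2L1 raises them when proteasome activity is limiting. Cancer cells depend on this machinery to clear misfolded secretory proteins, and inhibitors of its beta subunits are used as drugs.

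The genes described here are the protein-coding genes whose symbol starts with PSMA, PSMB, PSMC, PSMD, PSME, PSMF or PSMG, which gave 49 of the 58735 genes in the count table. A low-count filter over all libraries left 47 of them among the 15555 genes tested. The other 2, PSMA8 of the testis proteasome and PSMB11 of the thymus proteasome, had 0 counts in all 9 libraries, which allows a level of up to between 0.187 and 0.249 CPM (counts scaled to a fixed library total) in a single library (3 counts, counting error only). PSMC3IP, a cofactor of meiotic recombination, entered by its symbol only. A further 37 genes with the same symbol start are not protein coding, 30 of them processed pseudogenes, and were left out.

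RNA was measured in VCaP, an established androgen-responsive prostate cancer cell line, cultured with serum and the androgen dihydrotestosterone (DHT). Cells labelled WT received a control siRNA (siCtrl), and cells labelled CDO1 knockdown received 1 of 2 siRNAs against CDO1, siCDO1A or siCDO1C. CDO1 encodes cysteine dioxygenase, which oxidises cysteine. Each condition had 3 libraries, labelled as biological replicates and given batch numbers equal to the replicate numbers. Total counts per library were between 12061295 and 16073698. The comparisons ask how the transcriptome responds to each siRNA on its own, and both use the same siCtrl libraries, so that they are not independent of each other.

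The targeted gene followed the labels. CDO1 was reduced by 82.1% ± 4.83 (SD, n = 3) with siCDO1A and by 87.9% ± 6.98 (SD, n = 3) with siCDO1C (two-sided exact permutation test, p = 0.1 each, the smallest value possible with 3 libraries per group). In siCDO1C replicate 2 it stood at 2.81 CPM, against 1.1 and 1.16 CPM in the other siCDO1C libraries. This library also lay apart from them on the second principal component, at -13.3 against 10.1 and 13.1. The 9 prostate markers examined were all detected, with a summed level of 5690 to 6980 CPM. Of 7 markers of blood, fibroblast and endothelial cells, COL1A2 was at 0 and PTPRC, CD3E and CD68 were at no more than 0.165 CPM in any library. Their sum, carried by COL1A1 and VWF, was 3.34 to 4.35 CPM in siCtrl, 5.41 to 7.05 CPM in siCDO1A and 5.12 to 5.34 CPM in siCDO1C cells, and its part in the results was not tested. In bulk RNA, fewer cells of a type and less RNA per cell cannot be told apart.

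Proteasome mRNA as a whole took a small and similar share of the counts in each condition. The 49 genes together held 0.442% ± 0.00879 (SD, n = 3) of all counts under siCtrl, 0.427% ± 0.0116 (SD, n = 3) under siCDO1A and 0.433% ± 0.0226 (SD, n = 3) under siCDO1C, and the ranges of the libraries overlapped between all groups. The highest share, 0.459%, was that of siCDO1C replicate 2. The mitochondrial share of counts averaged 3.34%, 3.41% and 3.36% in the same order.

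In siCtrl cells the genes of the core and of the regulatory particle spanned a wide range of levels per length (RPKM, CPM per kilobase of the gene length deposited with the counts). The median over the 47 genes was 17.9 RPKM. PSMA7, an alpha subunit, was highest at 140.0 ± 9.44 RPKM (SD, n = 3), followed by PSMB4, a beta subunit without an active site, at 108.0 ± 5.04 RPKM and PSMB7, which carries the trypsin-like site, at 82.5 ± 1.05 RPKM. The gaps between these 3 were larger than their SDs. The constitutive catalytic subunits lay between 28.0 and 82.5 RPKM, and the non-catalytic beta subunits between 25.3 and 108.0 RPKM. The ATPases that unfold the substrate (PSMC1 to PSMC6) lay between 7.15 and 43.1 RPKM and the lid subunits between 10.2 and 62.3 RPKM. The assembly chaperones PSMG1 to PSMG3 were close together, at 9.05 to 10.4 RPKM, and PSMG4 was at 0.819 ± 0.193 RPKM.

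Although alpha subunits enter the ring in equal numbers, their mRNA levels per length were listed from 0.169 to 140.0 RPKM. PSMA6 was the lowest of all 47 genes, with 9 to 27 counts per library. It is overlapped on the same strand by AL121594.1, and its 4 named pseudogenes held 94 counts over the 9 libraries against 157 for PSMA6 itself. Of the 8 lowest genes, 5 are overlapped by a gene on the same strand (PSMA6, PSMD9, PSMB10, PSMA2 and PSMB9). The median level was 11.5 RPKM over the 13 genes with such an overlap and 22.9 RPKM over the 34 without one. These levels also divide by the deposited gene length, 1750 bases for PSMA7 and 6506 for PSMA6. Among the other low genes it was 10418 bases for PSMG4, 8774 for PSMD9 and 1853 for PSMB10. The part of the overlaps and of the lengths in these levels was not tested. How reads matching several genes were counted is not given in the sources used here. PSMC1, an ATPase with 13 named pseudogenes that held 348 counts against 5095 of its own, is uncertain in the same way.

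**Figure D1:**
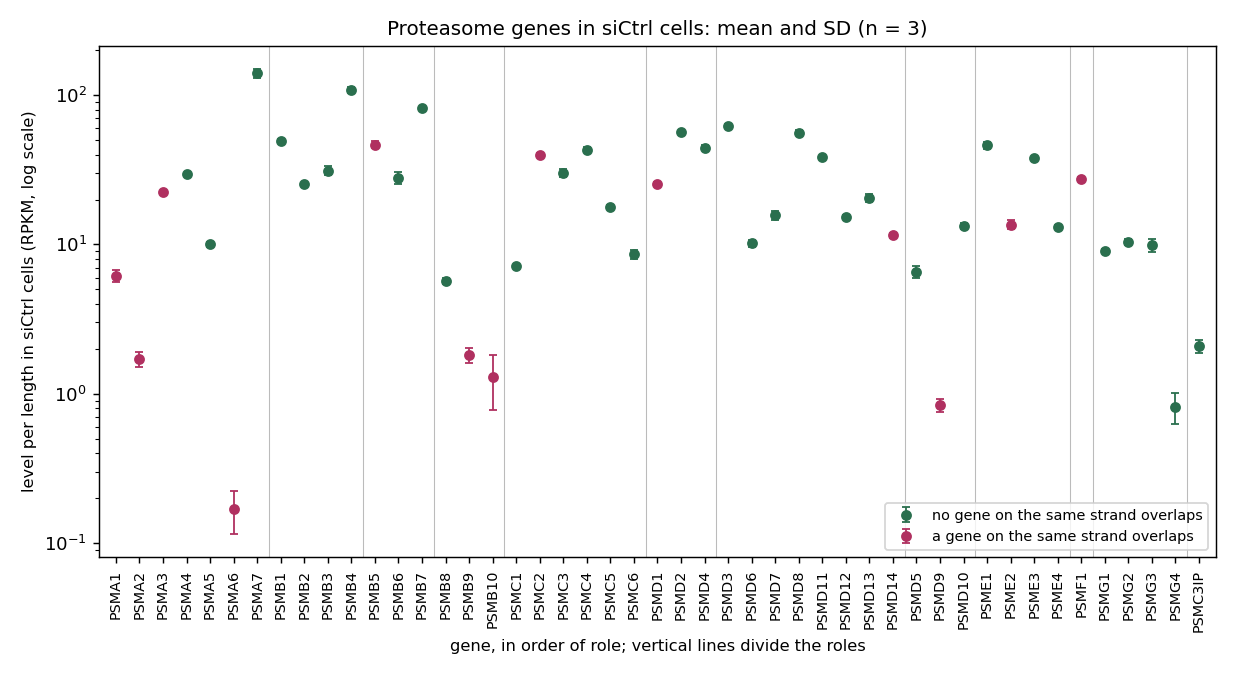
Mean level per length in siCtrl cells (RPKM, logarithmic vertical axis) of the 47 proteasome genes tested, in order of role, with the SD over 3 libraries. Most genes lie between 5.69 and 140.0 RPKM, and 5 of the 8 lowest are overlapped by another gene on the same strand (red points).

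With siCDO1A, 2 of the 47 genes changed, both higher: PSMB5 and PSMG1 (edgeR's quasi-likelihood test, Benjamini-Hochberg adjusted p of at most 0.05 over all genes tested). That is 4.26% of the proteasome genes, against 14.8% of all genes tested. With siCDO1C, 1 of the 47 changed, PSMD14, which was lower. This is 2.13% of the proteasome genes, against 4.77% of all genes. When siCDO1C was set against siCDO1A directly, edgeR called 0 of the 47 genes, against 0.444% of all genes, and DESeq2 also called 0. In that comparison 1 gene, PSMD14, had an unadjusted p under 0.05 in edgeR (2.13%, against 7.65% of all genes).

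The shifts of the remaining genes were small. The median absolute log2 fold change was 0.07 over the proteasome genes and 0.15 over all genes with siCDO1A, 0.07 and 0.14 with siCDO1C, and 0.05 and 0.10 between the siRNAs. The standard errors were smaller too, with a median of 0.0705 against 0.103 with siCDO1A and 0.09 against 0.118 with siCDO1C. The signed medians were -0.04 with siCDO1A and -0.02 with siCDO1C, where the medians over all genes were 0.01 and 0. The 95% interval of the log2 fold change lay wholly within 0.5 of 0 for 42 of the 47 genes with siCDO1A and for 39 with siCDO1C. The exceptions with siCDO1A were PSMA6, PSMB9, PSMB10, PSMG4 and PSMC3IP. With siCDO1C they were the same 5 and PSMD14, PSMG1 and PSMG3. All 3 siRNA libraries lay beyond all 3 siCtrl libraries for 10 of the 47 genes with siCDO1A (21.3%, against 30.6% of all genes tested), 3 higher and 7 lower, and for 6 with siCDO1C (12.8%, against 24.2%), 3 higher and 3 lower. Between the siRNAs the groups did not overlap for 2 genes (4.26%, against 12.7%).

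**Figure D2:**
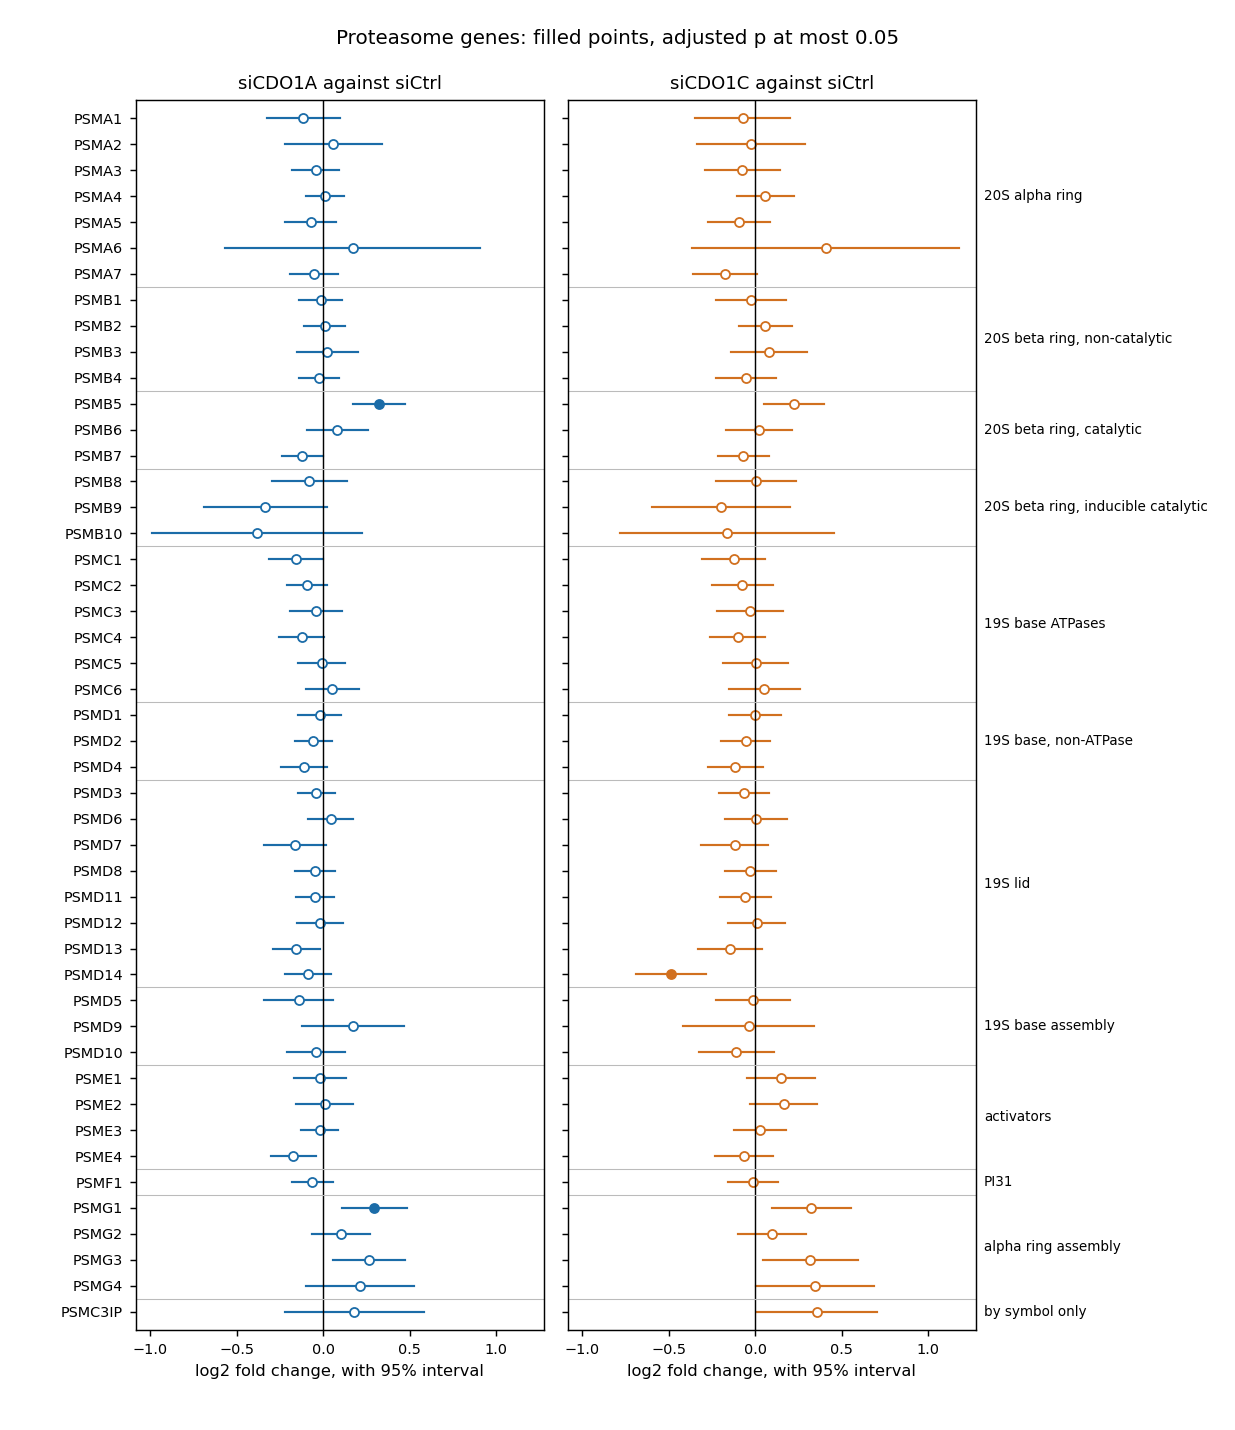
Log2 fold change against siCtrl of the 47 proteasome genes with siCDO1A (left) and siCDO1C (right), grouped by role, with 95% intervals from edgeR's quasi-likelihood fit. Filled points, PSMB5 and PSMG1 on the left and PSMD14 on the right, have an adjusted p of at most 0.05. Most open points have intervals that include 0. Above 0 lie the intervals of PSMG3 on the left and of PSMB5, PSMG1, PSMG3, PSMG4 and PSMC3IP on the right. Below 0 lie those of PSMB7, PSMC1, PSMD13 and PSME4 on the left.

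PSMB5 (ENSG00000100804, GRCh38 chromosome 14, 23016543 to 23035230, minus strand) encodes the beta subunit with the chymotrypsin-like site, the main target of bortezomib. Its level was 77.8, 81.9 and 87.2 CPM in the siCtrl libraries, 111.0, 106.0 and 92.3 CPM with siCDO1A, and 97.0, 104.0 and 89.2 CPM with siCDO1C. All 6 siRNA libraries were above all siCtrl libraries, by little for replicate 3 of each siRNA. Against siCtrl, siCDO1A raised it 1.25-fold (log2 0.32, standard error 0.0721, edgeR adjusted p = 0.00451), siCDO1C gave a log2 value of 0.22 that did not pass (standard error 0.0805, edgeR adjusted p = 0.136), and the direct comparison of the siRNAs gave -0.10 (95% interval -0.29 to 0.10, adjusted p = 0.941). Within batches 1, 2 and 3, the log2 difference with siCDO1A was 0.51, 0.37 and 0.08. Across the 17 alternatives the siCDO1A call was kept, with an adjusted p between 3.79e-06 and 0.0423. PSMB5 also passed with siCDO1C once GC content and length trends were removed, an alternative chosen after seeing the data (edgeR adjusted p = 0.0251, and 0.045 with the replicate block). A gene on the same strand, AL132780.4, overlaps PSMB5 but held only 136 counts over the 9 libraries, against 11588 for PSMB5.

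The other constitutive catalytic subunits did not pass the test. PSMB6, which carries the caspase-like site, was at 39.5, 37.7 and 44.4 CPM in siCtrl, 43.4, 46.3 and 39.4 CPM in siCDO1A and 42.2, 42.5 and 39.4 CPM in siCDO1C cells, and the groups overlapped. For PSMB7 the corresponding levels were 146.0, 146.0 and 149.0 CPM, 139.0, 137.0 and 131.0 CPM, and 143.0, 146.0 and 135.0 CPM. All siCDO1A libraries thus lay below all siCtrl libraries for PSMB7, by a log2 fold change of -0.12 (95% interval -0.24 to -0.0036, edgeR adjusted p = 0.164). Before rounding, the siCDO1C libraries of PSMB7 also all lay below siCtrl, replicate 2 by very little (log2 fold change -0.07, edgeR adjusted p = 0.654). For PSMB6 the log2 values were 0.08 under siCDO1A and 0.02 under siCDO1C (edgeR adjusted p = 0.581 and 0.938).

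The inducible subunits PSMB8, PSMB9 and PSMB10 replace PSMB5, PSMB6 and PSMB7 in the immunoproteasome, which immune cells make and which interferon induces elsewhere. In VCaP cells they were low. PSMB8 was at 16.1, 17.1 and 17.9 CPM in siCtrl, 17.4, 15.1 and 16 CPM in siCDO1A and 16.9, 18.6 and 16.2 CPM in siCDO1C cells, with overlapping groups. PSMB9 was at 4.91, 6.21 and 5.53 CPM, 4.59, 4.45 and 4.16 CPM, and 4.8, 5.78 and 3.96 CPM in the same order, so that its siCDO1A libraries were all below the siCtrl libraries. None of the 3 passed the test with either siRNA. The log2 fold changes of PSMB9 were -0.34 and -0.20 (edgeR adjusted p = 0.207 with siCDO1A). PSMB10 had only 23 to 57 counts per library, and its log2 fold change of -0.38 with siCDO1A rested on siCtrl replicate 3, which at 3.54 CPM was above the other siCtrl libraries at 1.87 and 1.83 CPM. Without that library it was 0.03, and the siCDO1C value went from -0.16 to 0.25. PSMB9 and PSMB8 overlap in part on opposite strands and PSMB9 also overlaps TAP1, and whether the counting used strand is not given in the sources used here.

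Per length, PSMB8 stood at 12.2% ± 0.1 (SD, n = 3) of PSMB5 under siCtrl, 9.28% ± 0.892 under siCDO1A and 10.5% ± 0.252 under siCDO1C. The siRNA libraries, at 8.42 to 10.7%, all lay below the siCtrl libraries, at 12.1 to 12.3%, while PSMB8 itself overlapped between groups and PSMB5 was higher. PSMB9 stood at 6.5% ± 1.1 of PSMB6, 4.83% ± 0.263 and 5.51% ± 0.85, and PSMB10 at 1.57% ± 0.612 of PSMB7, 1.35% ± 0.226 and 1.51% ± 0.0643 (SD, n = 3 each). For PSMB9 the siCDO1A libraries, at 4.53 to 4.99%, all lay below the siCtrl libraries, at 5.86 to 7.77%, and the siCDO1C libraries overlapped with siCtrl. For PSMB10 both siRNA groups overlapped with siCtrl. The size of these percents depends on the deposited lengths, which are the same for every library. They are 2997 bases for PSMB8 and 1765 for PSMB5, 3072 for PSMB9 and 1448 for PSMB6, and 1853 for PSMB10 and 1787 for PSMB7. PSME1 and PSME2, the interferon-inducible activator that accompanies the immunoproteasome, had log2 fold changes of -0.02 and 0.01 with siCDO1A and 0.15 and 0.16 with siCDO1C, and neither passed the test. Of 10 genes of the interferon and antigen presentation response, 0 passed it with either siRNA (edgeR, adjusted p of at least 0.108). For each siRNA 2 of them had an unadjusted p under 0.05 in edgeR (27.9% of all genes with siCDO1A and 18.6% with siCDO1C). Their summed level was 398 to 400.0 CPM in siCtrl, 385 to 409 CPM in siCDO1A and 375 to 457 CPM in siCDO1C cells.

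**Figure D3:**
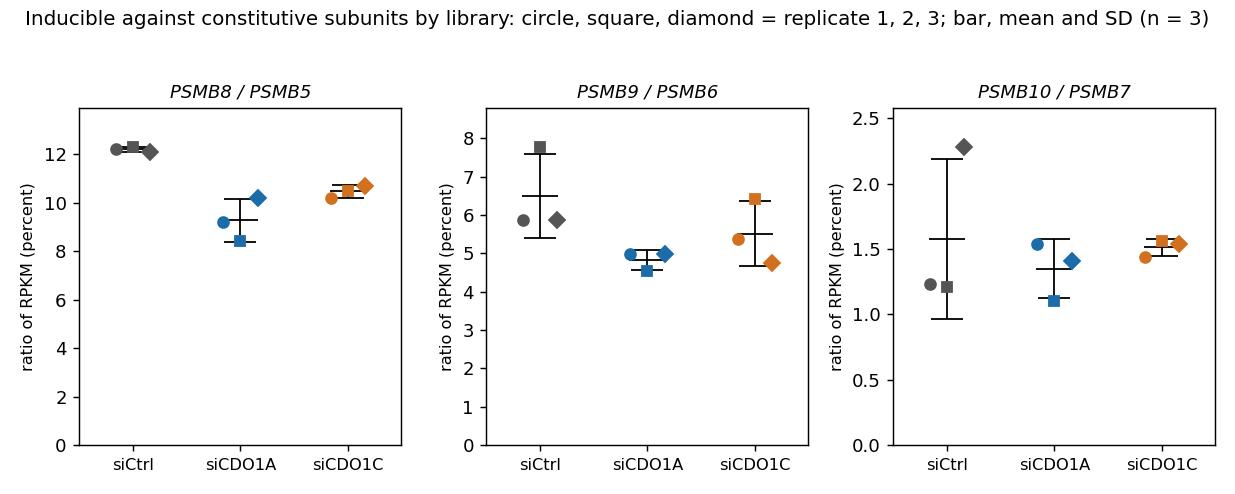
Level per length of each inducible subunit as a percent of its constitutive counterpart, by library, with mean and SD (n = 3). For PSMB8 against PSMB5 the siCtrl libraries, at 12.1 to 12.3%, lie above all siRNA libraries, for PSMB9 against PSMB6 only the siCDO1A libraries, at 4.53 to 4.99%, lie clear below siCtrl, and for PSMB10 against PSMB7 all groups overlap.

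The alpha and non-catalytic beta subunits gave 0 calls with either siRNA in edgeR. Of these subunits 0 had an unadjusted p under 0.05 (27.9% of all genes with siCDO1A and 18.6% with siCDO1C). With siCDO1A, the 7 alpha subunits had log2 fold changes from -0.12 to 0.17, with a median of -0.04, and the 4 non-catalytic beta subunits from -0.02 to 0.03. With siCDO1C the corresponding ranges were -0.18 to 0.41 and -0.05 to 0.08. The upper ends of both alpha ranges were those of PSMA6, whose counts are few and whose 95% interval reached from -0.57 to 0.91 with siCDO1A and from -0.36 to 1.18 with siCDO1C.

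Among the 17 subunits of the regulatory particle, PSMD14 alone was called. PSMD14 (ENSG00000115233, GRCh38 chromosome 2, 161308038 to 161411717, plus strand) encodes the lid metalloprotease that cuts the ubiquitin chain off a substrate as it enters the complex. Its level was 84.5, 91.3 and 88.9 CPM under siCtrl, 86.2, 79.7 and 82.9 CPM under siCDO1A and 56.9, 74.0 and 58.7 CPM under siCDO1C. The siCDO1C libraries were all below the 6 others, and the siCDO1A libraries overlapped with siCtrl. The highest siCDO1C value belonged to replicate 2, the library that also held the most CDO1 mRNA of its group, and the part of that library in the result is given by leaving it out.

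With siCDO1C the log2 fold change of PSMD14 was -0.49 (standard error 0.0955, 1.4-fold, edgeR adjusted p = 0.00765) and with siCDO1A -0.09 (standard error 0.0638, 95% interval -0.22 to 0.04, adjusted p = 0.39). Without siCDO1C replicate 2 the siCDO1C value was -0.61 (edgeR adjusted p = 1.69e-07). The call was lost without siCtrl replicate 2, siCtrl replicate 3 or siCDO1C replicate 1, with an adjusted p of 0.0646, 0.0597 and 0.0654. Within batches 1, 2 and 3 the log2 difference was -0.57, -0.30 and -0.60. The direct comparison of the siRNAs gave -0.40 (standard error 0.1, 95% interval -0.61 to -0.19, edgeR adjusted p = 0.125). With the replicate block it passed the threshold (edgeR adjusted p = 0.0444), so that the difference between the siRNAs depended on the fit. Genes that overlap PSMD14 held 9 counts on the same strand and 124 on the other strand, against 9650 for PSMD14.

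The other lid subunits and the base had small log2 fold changes, none of them past the test. With siCDO1C the 7 lid subunits other than PSMD14 had log2 fold changes between -0.15 (PSMD13) and 0.01 (PSMD12). The 6 ATPases lay between -0.13 and 0.05 with siCDO1C and between -0.16 and 0.05 with siCDO1A, and the ubiquitin receptors and scaffold proteins of the base (PSMD1, PSMD2 and PSMD4) between -0.12 and 0 and between -0.11 and -0.02. The 3 base chaperones PSMD5, PSMD9 and PSMD10 gave 0 calls with either siRNA in edgeR, against 14.8% of all genes with siCDO1A and 4.77% with siCDO1C. At an unadjusted p under 0.05 they also gave 0, against 27.9% and 18.6% of all genes. With 3 genes these counts cannot be told apart from the shares. With siCDO1A the lid subunits lay between -0.16 (PSMD7) and 0.04 (PSMD6). Under this siRNA 7 of the 8 lid subunits and 5 of the 6 ATPases had values below 0, none of them past the test. The 95% intervals of PSMD13 (-0.29 to -0.02) and PSMC1 (-0.31 to -0.0023) lay below 0. All siCDO1A libraries of PSMD13, PSMC1, PSMC2 and PSMC4 were below siCtrl. Over all genes tested, the groups did not overlap for 30.6%.

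The 4 chaperones that assemble the alpha ring, PSMG1 to PSMG4, had values above 0 with both siRNAs, their median log2 values being 0.24 (siCDO1A) and 0.32 (siCDO1C). They work as the heterodimers PSMG1-PSMG2 and PSMG3-PSMG4. PSMG1 alone was called, with siCDO1A. The siCtrl libraries enter both comparisons, so that the values with the 2 siRNAs are not separate evidence.

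PSMG1 (ENSG00000183527, GRCh38 chromosome 21, 39174769 to 39183851, minus strand) stood at 22.8, 23.3 and 22.2 CPM in siCtrl, 30, 27.8 and 26.0 CPM in siCDO1A and 27.8, 32.7 and 25.3 CPM in siCDO1C cells. All siRNA libraries were above all siCtrl libraries. It rose 1.23-fold under siCDO1A (log2 0.30, standard error 0.0898, edgeR adjusted p = 0.0303), and the log2 value under siCDO1C was 0.32 (standard error 0.107, edgeR adjusted p = 0.101), with -0.20 to 0.27 as the 95% interval of the difference between the siRNAs. The batch differences with siCDO1A were 0.40, 0.25 and 0.23. The siCDO1A call was lost with the replicate block (edgeR adjusted p = 0.0867), in DESeq2 (adjusted p = 0.0507), and without siCtrl replicate 1, 2 or 3 or siCDO1A replicate 1 or 2 (edgeR adjusted p from 0.0772 to 0.148). With GC content and length trends removed, an alternative chosen after seeing the data, PSMG1 was also called with siCDO1C (edgeR adjusted p = 0.0232, and 0.0365 with the replicate block).

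PSMG2, the partner of PSMG1, was at 34.4, 36.5 and 33.3 CPM in siCtrl, 38.4, 37.9 and 35.7 CPM in siCDO1A and 35.5, 41.1 and 35.3 CPM in siCDO1C cells. PSMG3 was at 18.4, 18.3 and 21.7 CPM, 22.7, 25.5 and 22.3 CPM, and 24.5, 28.9 and 20 CPM in the same order. PSMG4, with 88 to 174 counts per library, was at 7.79, 7.01 and 10.8 CPM, 10.3, 9.99 and 9.78 CPM, and 10.3, 11.9 and 10.8 CPM. Only the siCDO1A libraries of PSMG3 were clear of siCtrl, and PSMG3 was called with siCDO1A without siCtrl replicate 3 or without siCDO1A replicate 3 (edgeR adjusted p = 0.0365 and 0.0329), against a log2 fold change of 0.27 and an adjusted p of 0.0836 in edgeR with all libraries. Its siCDO1C value and those of PSMG4 with siCDO1A and siCDO1C were 0.32, 0.21 and 0.35 (edgeR adjusted p = 0.194, 0.389 and 0.266). With 1 library left out, the siCDO1C value of PSMG3 ranged from 0.19 (without siCDO1C replicate 2) to 0.44 (without siCDO1C replicate 3). The values of PSMG4 ranged from 0.09 to 0.43 with siCDO1A and from 0.23 to 0.56 with siCDO1C, lowest without siCtrl replicate 2 and highest without siCtrl replicate 3. PSMG2, PSMG3 and PSMG4 overlap genes on the other strand. Over the 9 libraries these held 5901 counts against 4485 for PSMG2, 983 against 2783 for PSMG3 and 9430 against 1219 for PSMG4. Because the strand setting of the counting is not given, the levels of these chaperones are uncertain, most of all that of PSMG4.

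**Figure D4:**
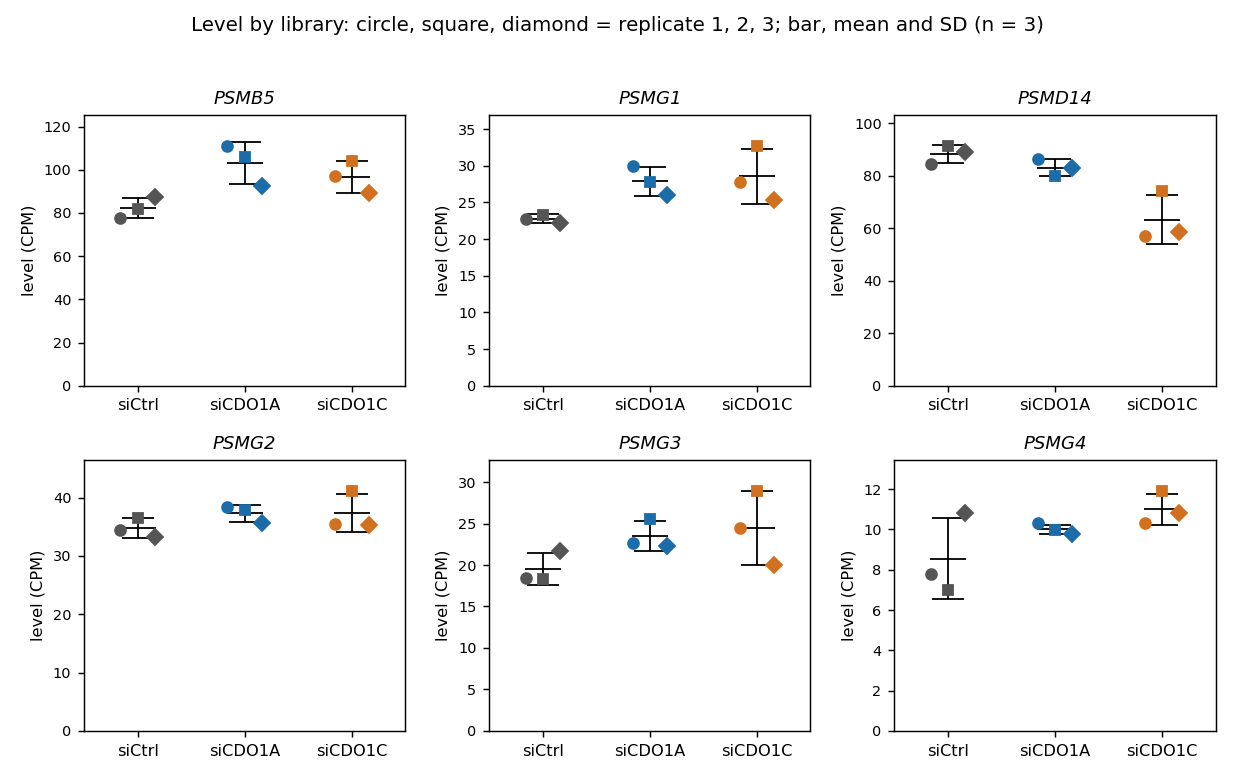
Level (CPM, axis from 0) of PSMB5, PSMG1, PSMD14 and the other alpha ring chaperones in each of the 9 libraries, with mean and SD (n = 3). PSMB5 and PSMG1 are higher in all 6 siRNA libraries than in siCtrl, PSMD14 is lower in the siCDO1C libraries only, and siCDO1C replicate 2 (square) is the highest of its group in every panel.

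PSME4, the activator PA200, was at -0.17 on the log2 scale under siCDO1A (standard error 0.0622, edgeR adjusted p = 0.0691), with all siCDO1A libraries below siCtrl, and it was called when siCDO1A replicate 3 was left out. PSME3 and the inhibitor PSMF1 (PI31) were at -0.02 and -0.06. PSMC3IP, the recombination cofactor, was at 4.83, 5.41 and 5.84 CPM in siCtrl, 7.14, 7.12 and 4.16 CPM in siCDO1A and 7.74, 6.62 and 6.35 CPM in siCDO1C cells, with a log2 fold change of 0.18 and 0.36 and no call (edgeR adjusted p = 0.595 and 0.257). Its siCDO1A value ranged from 0.05 (without siCDO1A replicate 2) to 0.40 (without siCDO1A replicate 3).

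The promoter letters of the 3 called genes are shown because their transcripts moved while those of their neighbours in the complex did not pass the test. Motifs were searched on both strands of the 300 bases from 250 before to 50 after the RefSeq start (GRCh38.p14), and 43 of the 49 genes had an entry. The antioxidant response element TGACNNNGC, which NFE2L1 and NFE2L2 bind, was present in 13 of the 43 (30.2%), against 13.3% of 35116 promoters. CCAAT was present in 20 (46.5%, against 34.6%) and the interferon element GAAANNGAA in 7 (16.3%, against 8.11%). The 43 genes entered with a single promoter each. The 35116 were all promoters of the RefSeq set, not limited to a single promoter per gene or to protein-coding genes, so that the sets are unlike. For PSMB5 the 240 bases before the gene span are printed in gene orientation, and for the others 30 bases around a motif, all with the motif in capitals. The stretches of PSMG1 and PSMD14 lie before the RefSeq start but inside the gene span deposited with the counts. PSMG1 holds both CCAAT and TGACAGCGC, PSMB5 holds CCAAT, and in PSMD14 the capitals mark overlapping CCAAT matches on opposite strands.
PSMB5, chr14:23035231-23035470, minus strand: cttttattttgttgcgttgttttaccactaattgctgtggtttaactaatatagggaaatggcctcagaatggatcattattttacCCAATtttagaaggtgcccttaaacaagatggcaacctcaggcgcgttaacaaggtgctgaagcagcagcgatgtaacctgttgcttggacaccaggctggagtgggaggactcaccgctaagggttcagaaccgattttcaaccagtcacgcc
PSMG1, chr21:39183670-39183699, minus strand: gagaccccctcccCCAATctgtaatttaaa
PSMG1, chr21:39183616-39183645, minus strand: ggcccagggcaTGACAGCGCgggcgggcgg
PSMD14, chr2:161308366-161308395, plus strand: ctccgtcgtctCCAATTGGccgtcggggaa

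For comparison, the antioxidant response element of 2 subunits that were not called, PSMD12 of the lid and PSMB3 of the beta ring, and the interferon element of PSMB10 and PSME2 are given as well, with 30 bases each. The log2 fold changes under siCDO1A and siCDO1C were 0.02 and 0.08 for PSMB3 and -0.02 and 0.01 for PSMD12. The stretches of PSMB10 and PSME2 also lie before the RefSeq start but inside the deposited gene span. A match describes the letters of the window and not a bound site.
PSMD12, chr17:67366724-67366753, minus strand: gagacaaaaccTGACGCTGCaggctggagt
PSMB3, chr17:38752626-38752655, plus strand: cgcctccgtttTGACTTTGCaaccaaacta
PSMB10, chr16:67936853-67936882, minus strand: agggtaaaggcGAAAGCGAAagcaggaagt
PSME2, chr14:24146620-24146649, minus strand: acctggggagtGAAAGCGAAagcccgggcg

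The pathway around the proteasome was read from a list of other genes: associated factors, the NFE2L1 route, the shuttle receptors that carry ubiquitinated proteins, and the enzymes and genes that supply ubiquitin. Of its 34 genes in the count table, 33 were tested. With siCDO1A, 1 was higher and 3 lower past the test (14.8% of all genes were called), and 8 had an unadjusted p under 0.05 in edgeR (27.9% of all genes). With siCDO1C and between the siRNAs 0 were called in edgeR and in DESeq2 (4.77% and 0.444% of all genes in edgeR). In these comparisons 3 and 1 had an unadjusted p under 0.05 in edgeR (18.6% and 7.65% of all genes). Their median log2 values were -0.02 under siCDO1A and -0.06 under siCDO1C.

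DDI2, the protease that cleaves NFE2L1 into its active form, was at 187.0, 179.0 and 172.0 CPM in siCtrl, 132.0, 137.0 and 148.0 CPM in siCDO1A and 165.0, 128.0 and 176.0 CPM in siCDO1C cells. The siCDO1A libraries were all lower than siCtrl, by a log2 fold change of -0.37 (standard error 0.0593, edgeR adjusted p = 2.37e-04), and siCDO1C replicate 2 was the lowest of all. NFE2L1 itself was at -0.12 on the log2 scale under siCDO1A (edgeR adjusted p = 0.128). RAD23B, a shuttle receptor, fell with siCDO1A by 0.19 (edgeR adjusted p = 0.0099). RPS27A, which encodes ubiquitin fused to a ribosomal protein, rose by 0.17 (edgeR adjusted p = 0.03), and ZFAND5, a ubiquitin-binding stimulator of the proteasome, fell by 0.20 (adjusted p = 0.0124). With the replicate block, DDI2 kept its call (edgeR adjusted p = 0.00377), while RAD23B, RPS27A and ZFAND5 lost theirs (adjusted p = 0.0699, 0.134 and 0.0804). With 1 library left out, DDI2 kept an edgeR adjusted p of at most 0.00379. Leaving out siCDO1A replicate 2 ended the call of each of the other 3, as did leaving out siCtrl replicate 1 for RPS27A and ZFAND5, siCtrl replicate 2 for RAD23B, RPS27A and ZFAND5, and siCDO1A replicate 1 for RPS27A (edgeR adjusted p of up to 0.181).

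**Figure D5:**
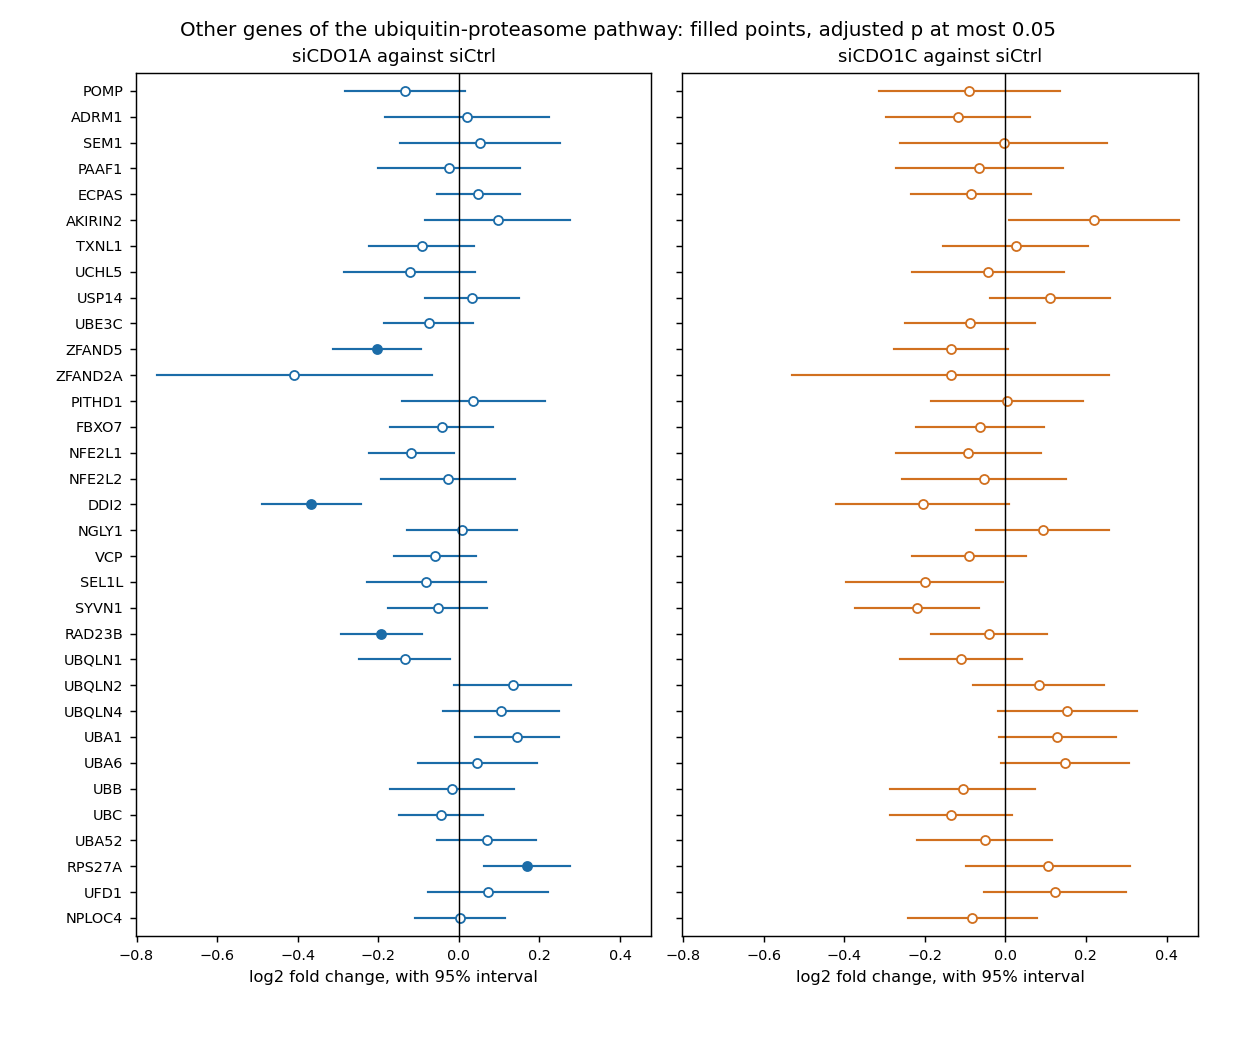
Log2 fold change against siCtrl of the 33 other pathway genes tested, with siCDO1A (left) and siCDO1C (right), with 95% intervals from edgeR's quasi-likelihood fit. The filled points with siCDO1A are DDI2, RAD23B and ZFAND5 below 0 and RPS27A above 0, and no point is filled with siCDO1C.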

How the data were processed

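The authors deposited raw read counts per gene of 9 directional poly(A) libraries, made with featureCounts. The submitters' processing notes name HISAT2 2.0.5, CASAVA and hg38, and settings for strand and for reads matching several genes are not given in the sources used here. Columns matching no sample (3) were used in no step. The deposited counts (12061295 to 16073698 per library) were normalized with TMM and tested with the quasi-likelihood test of edgeR 4.0.16 (R 4.3.3, robust, no covariate, 6 libraries per comparison) after filterByExpr with a minimum count of 10, with Benjamini-Hochberg adjustment over all 15555 genes and a threshold of 0.05. Scripts were tested on simulated data.

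Members, gene lists and motifs were chosen with earlier results of these data known. Values per library were given for proteasome genes called in any comparison, the catalytic and inducible subunits, PSMC3IP and DDI2. The other called pathway genes, RAD23B, RPS27A and ZFAND5, were given by log2 fold change. Further genes were named after their values were seen, PSMG2, PSMG3 and PSMG4 in full. 1 pathway gene is not reported here. Batch numbers in the labels equal the replicate numbers, so that the labels pair the libraries. Over 11337 genes, deviations of libraries numbered 1, 2 and 3 correlated at -0.197, -0.088 and -0.369 between siCtrl and siCDO1A. The correlations were 0.051, -0.0087 and -0.271 between siCtrl and siCDO1C, and -0.131, 0.123 and 0.37 between the siRNAs. Same-numbered libraries thus did not deviate together throughout, and the replicate block was an alternative. The others were DESeq2 1.42.0, RLE size factors, no filter or 10 counts in every library, 1 fit of all 9 libraries, a gene length trend, an adjusted p of 0.01 and leaving out each library. Removing trends with GC content (known for 15442 genes) and length was added after seeing the data. Promoters came from RefSeq (GRCh38.p14), which 49 of 49 genes matched by symbol and overlapped.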

Additional observations from a re-analysis of the deposited data

How the results depend on the processing

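The number of proteasome genes called with siCDO1A was 2. It was 1 (PSMB5) with DESeq2, 1 fit of all 9 libraries, the replicate block, the replicate block with the length trend removed, or an adjusted p of at most 0.01. It was 4 with the length trend removed, 7 with GC content and length trends removed (PSMA7, PSMB7, PSMC4, PSMD4 and PSMD13 lower, PSMB5 and PSMG1 higher), 4 when the replicate block was added to that, and 1 to 4 with 1 library left out, where 4 came without siCDO1A replicate 3. With siCDO1C the number was 1, and 3 with GC content and length trends removed, with or without the replicate block (PSMB5 and PSMG1 higher, PSMD14 lower). It lay between 0 and 5 with 1 library left out, at 0 without siCtrl replicate 2, siCtrl replicate 3 or siCDO1C replicate 1 and at 5 without siCDO1C replicate 2 (PSMA3, PSMA7, PSMC2, PSMD13 and PSMD14, all lower). With siCDO1A, the length trend alone added PSMB7 and PSMC4, both lower. Between the siRNAs it was 0, and 1 (PSMD14) with no filter, 1 fit of all 9 libraries, the replicate block with or without either trend correction, GC content and length trends removed, or without siCDO1C replicate 2 (range 0 to 1 with 1 library left out). Without a trend correction, the replicate block changed no call of a proteasome gene other than PSMG1 with siCDO1A and PSMD14 between the siRNAs. Added to the length trend it ended the siCDO1A calls of PSMB7, PSMC4 and PSMG1, and added to GC content and length trends those of PSMA7, PSMB7 and PSMD13. The share of all genes called under each alternative is not given here, so that these counts cannot be set against it. The cause of these differences was not tested. Of 560 values of single genes under an alternative, 505 kept direction and call, 8 reversed, 32 lost a call and 15 gained one. Most of the single results were not called in the main fit and had no call to lose, so that the 505 do not measure how stable the calls are. With siCDO1C and 1 library left out, PSMB6 ranged from -0.029 (without siCtrl replicate 2) to 0.091, RPS27A from -0.038 (without siCDO1C replicate 2) to 0.186 and PSMB8 from -0.05 (without siCDO1C replicate 2, -0.026 without siCtrl replicate 1) to 0.044. PSMB8 was -0.004 with the length trend removed and -0.003 with the replicate block added. PSMB10 ranged from -0.543 to 0.027 with siCDO1A and from -0.322 to 0.245 with siCDO1C, both highest without siCtrl replicate 3. With protein-coding genes only, the share of counts became 0.455%, 0.439% and 0.445%. Depth limits PSMA6 (9 to 27 counts per library) and PSMB10 (23 to 57).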
